A study of Mus musculus with 12 samples.

Results

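The progenitor to preadipocyte step of inguinal fat was read from ICAM1+ preadipocytes, set against DPP4+ progenitors of the same depot. Its members are all genes that passed a count filter in 6 inguinal libraries, 3 per population, out of 12 libraries in the series, and 18855 of the 31099 genes in the count table passed. Both populations were sorted by flow cytometry from inguinal white adipose tissue of CD-1 pups at 3 days of age, with males and females mixed. No other genotype or treatment is labelled. The other 6 libraries, 3 of preadipocytes and 3 of progenitors from the fat around the thoracic aorta of the same pools of pups, entered the fit and served for 1 comparison between depots. Each library is RNA of sorted cells from pooled pups, so it averages over animals and over whatever cells the gate let through. The gates themselves are not described in the sources used here.

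White fat grows from fibroblast-like cells that line its connective tissue. In the mouse, DPP4+ cells of the interstitium have been described as early progenitors, and ICAM1+ cells as preadipocytes that have committed to the fat lineage but hold little lipid. Commitment is driven by the transcription factors PPARG and C/EBP-alpha, which switch on genes for fatty acid uptake and storage, while BMP, Wnt, hedgehog and TGF-beta signals set the pace.

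Library totals ran between 15692839 and 25674461 counts in ICAM1+ cells and between 16211659 and 17677879 counts in DPP4+ cells. Values below are counts per 1000000 counts (CPM) after TMM scaling, which sets libraries to a common scale by the bulk of their genes. Differences are log2 fold changes of ICAM1+ over DPP4+ ± an approximate standard error (SE), from edgeR's quasi-likelihood test with Benjamini-Hochberg adjustment over all genes tested. A gene was called where its adjusted p was under 0.05, and "higher" and "lower" below say what ICAM1+ cells did relative to DPP4+ cells. Positions are of mouse build mm10. CPM is not corrected for gene length, so levels are not compared between genes.

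The surface proteins that defined the sorts were measured first, as a check of the labels and not as a finding. Dpp4 (chr2:62330073-62412231, minus strand) had 33.9, 35.1 and 26.9 CPM in ICAM1+ libraries, against 1590.5, 1473 and 1458 CPM in DPP4+ libraries. Icam1 (chr9:21015985-21028817, plus strand) had 497, 484 and 506 CPM in ICAM1+ libraries, against 67.7, 73.4 and 43.6 CPM in DPP4+ libraries. Both genes separated the populations as the labels say, with no overlap between libraries. Pdgfra, the receptor that marks fibroblasts and fat progenitors alike, had 529, 582 and 753 CPM in ICAM1+ libraries, against 484, 543 and 449 CPM in DPP4+ libraries, and its log2 fold change of 0.34 was not called (adjusted p = 0.46). Pdgfrb, a receptor of perivascular and stromal cells, was not called either, with 0.29 ± 0.38 (SE, adjusted p = 0.685).

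Of the 18855 genes tested, 3384 were called, which is 17.9%. ICAM1+ cells had 1761 of them higher (9.34% of all tested) and 1623 lower (8.61%). These shares are the background against which each list count below is to be read. Genes with the largest changes were named only if their ICAM1+ and DPP4+ libraries did not overlap. For them the lack of overlap is a condition of choice and no added support. A change of at least 2-fold was reached by 1351 of the higher and 1050 of the lower genes. Over all genes tested, the log2 fold change had a median of 0.02. Scaled by library totals instead, 5281 genes were called, 82.7% of them higher, against 52.0% under TMM, and the median over all genes moved to 0.40. Because calls depend on the scale, the tool and the libraries, each list count of the inguinal step is given below with its range over 22 alternatives, which include library totals, DESeq2, limma-voom with library weights, the 6 inguinal libraries alone and leaving out each of the 12 libraries. In bulk RNA, fewer cells that express a gene and less of its RNA in each cell cannot be told apart, and this holds for every difference below.

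**Figure D1:**
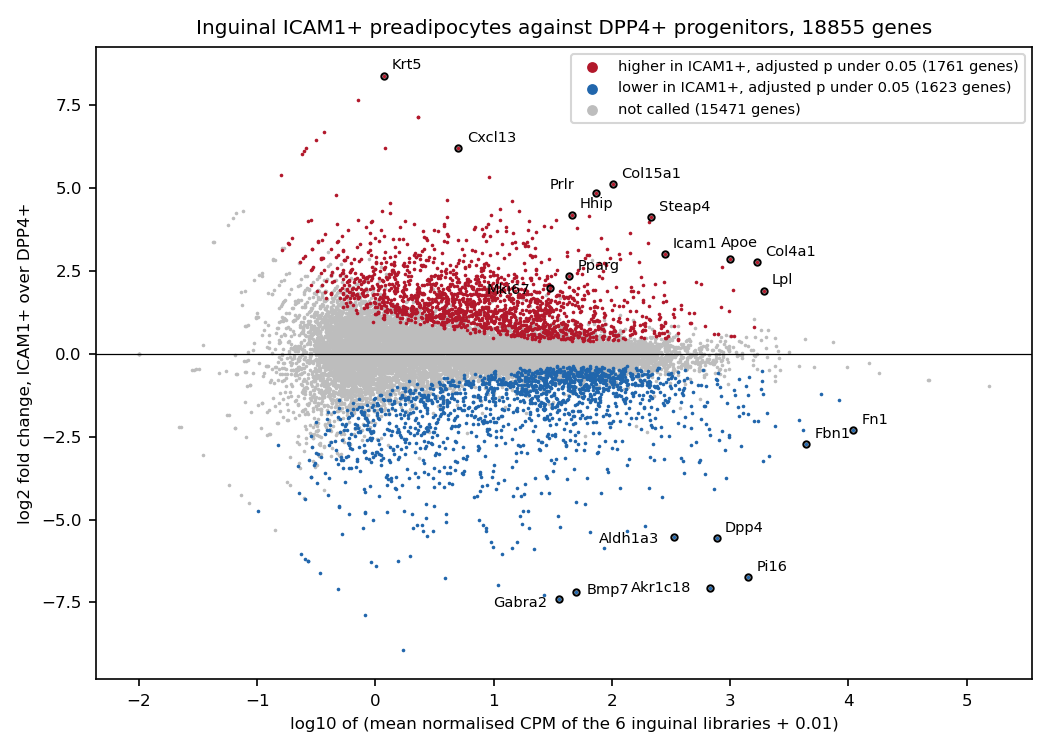
Log2 fold change of ICAM1+ over DPP4+ cells (y axis) against the log10 of the mean CPM of the 6 inguinal libraries (x axis), 1 point per gene tested. The 1761 red points are called higher in ICAM1+ cells and the 1623 blue points called lower, and Gabra2, Bmp7, Akr1c18 and Pi16 are among the lowest of the genes labelled.

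The 2 populations were first compared in their own marker lists. All 24 tested genes of an interstitial progenitor list were lower in ICAM1+ cells, with a median log2 fold change of -3.06, and 16 of 21 tested genes of a committed preadipocyte list were higher, with a median of 1.91 and none lower. Over the alternatives 23 to 24 of the interstitial genes were lower, and 14 to 18 higher and 0 to 1 lower of the committed list. Dpp4 and Icam1 are among the members. The lists were written with earlier results of these data known, so these counts describe the populations and are no independent check of them.

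Pi16, a peptidase inhibitor that marks interstitial fibroblasts (chr17:29317680-29330593, plus strand), had 29.5, 26.8 and 22.4 CPM in ICAM1+ libraries, against 3100.1, 2697 and 2589 CPM in DPP4+ libraries. Its level in each ICAM1+ library lay far under that of every DPP4+ library (-6.74 ± 0.52, adjusted p = 2.45e-06). Akr1c18, which inactivates progesterone (chr13:4132615-4150654, minus strand), had 11.8, 10.3 and 7.85 CPM in ICAM1+ libraries, against 1393, 1151 and 1461 CPM in DPP4+ libraries, again without overlap (-7.06 ± 0.29, adjusted p = 2.39e-08). The BMP ligand gene Bmp7 (chr2:172868012-172940321, minus strand) had 0.856, 0.541 and 0.667 CPM in ICAM1+ libraries, against 83.3, 89.1 and 124 CPM in DPP4+ libraries. The ICAM1+ libraries held it at under 1 CPM, and DPP4+ library 3 was the highest of the DPP4+ libraries (-7.18 ± 0.66, adjusted p = 1.02e-05). Cd55, whose protein shields cells from complement, had 107, 114 and 90.7 CPM in ICAM1+ libraries, against 1027, 933 and 1016 CPM in DPP4+ libraries (-3.26 ± 0.15, adjusted p = 4.67e-08). Dact2, an intracellular regulator of Wnt signalling, was lower as well (-5.67 ± 0.52, adjusted p = 1.09e-05). Ly6a, the gene of the stem cell antigen SCA1, had 895, 812 and 814 CPM in ICAM1+ libraries, against 2069, 1691 and 2263 CPM in DPP4+ libraries. The 2 populations did not overlap in Ly6a, and it fell (-1.26 ± 0.20, adjusted p = 0.00086), though it is no member of the interstitial list. Its relative Ly6c1, which is a member, fell too (-1.58 ± 0.24, adjusted p = 0.000509). Reads of Ly6c1 and of Akr1c18 can be shared with close relatives, and how such reads were counted is not stated in the sources used.

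Outside the interstitial list, Gabra2 had one of the largest falls. It encodes a subunit of the GABA-A receptor (chr5:70957597-71095849, minus strand), and it had 0.306, 0.386 and 0.564 CPM in ICAM1+ libraries, against 80.0, 65.0 and 69.5 CPM in DPP4+ libraries. No ICAM1+ library reached 1 CPM of Gabra2, and its fold change was -7.38 ± 0.33 (SE, adjusted p = 4.68e-08). The dynein chain gene Dync1i1 (-7.29, adjusted p = 2.4e-07) and the Wnt ligand gene Wnt10b (-6.97, adjusted p = 4.03e-07) fell nearly as far. Dmkn, which encodes the secreted protein dermokine (-6.04, adjusted p = 1.01e-06), and the guidance ligand gene Sema3e (-5.90, adjusted p = 9.87e-05) fell as well. Dync1i1 was at -8.46 without ICAM1+ library 2, and Sema3e at -6.69 without ICAM1+ library 3.

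Once genes that averaged under 10 CPM in ICAM1+ cells were set aside, rises were led by Col15a1 (chr4:47208161-47313167, plus strand), a collagen of basement membranes, with 172, 209 and 208 CPM in ICAM1+ libraries, against 3.85, 8.64 and 4.42 CPM in DPP4+ libraries. Every ICAM1+ library was far above the highest DPP4+ library, which was library 2 (5.12 ± 0.41, adjusted p = 3.47e-06). The prolactin receptor gene Prlr (chr15:10177238-10349180, plus strand) had 131, 142 and 151 CPM in ICAM1+ libraries, against 3.85, 7.50 and 3.36 CPM in DPP4+ libraries (4.85 ± 0.28, adjusted p = 2.4e-07). The metalloreductase gene Steap4 (chr5:7960457-7982213, plus strand) had 357, 422 and 426 CPM in ICAM1+ libraries, against 16.6, 32.4 and 19.6 CPM in DPP4+ libraries (4.13 ± 0.26, adjusted p = 5.32e-07). Steap4 also stands on the pericyte list described further on. Cited1, a transcriptional co-regulator (4.32, adjusted p = 5.62e-06), and Npy2r, a receptor of neuropeptide Y (4.20, adjusted p = 3.86e-05), rose by similar amounts. Gdpd2, which encodes a glycerophosphodiester phosphodiesterase, rose too (4.60, adjusted p = 5.79e-08), though 17.3% of its exonic bases overlap another annotated gene. Agtr2, the type 2 angiotensin receptor gene, had 1627, 1753 and 1624 CPM in ICAM1+ libraries, against 436, 428 and 453 CPM in DPP4+ libraries (1.93 ± 0.18, adjusted p = 1.35e-05).

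**Figure D2:**
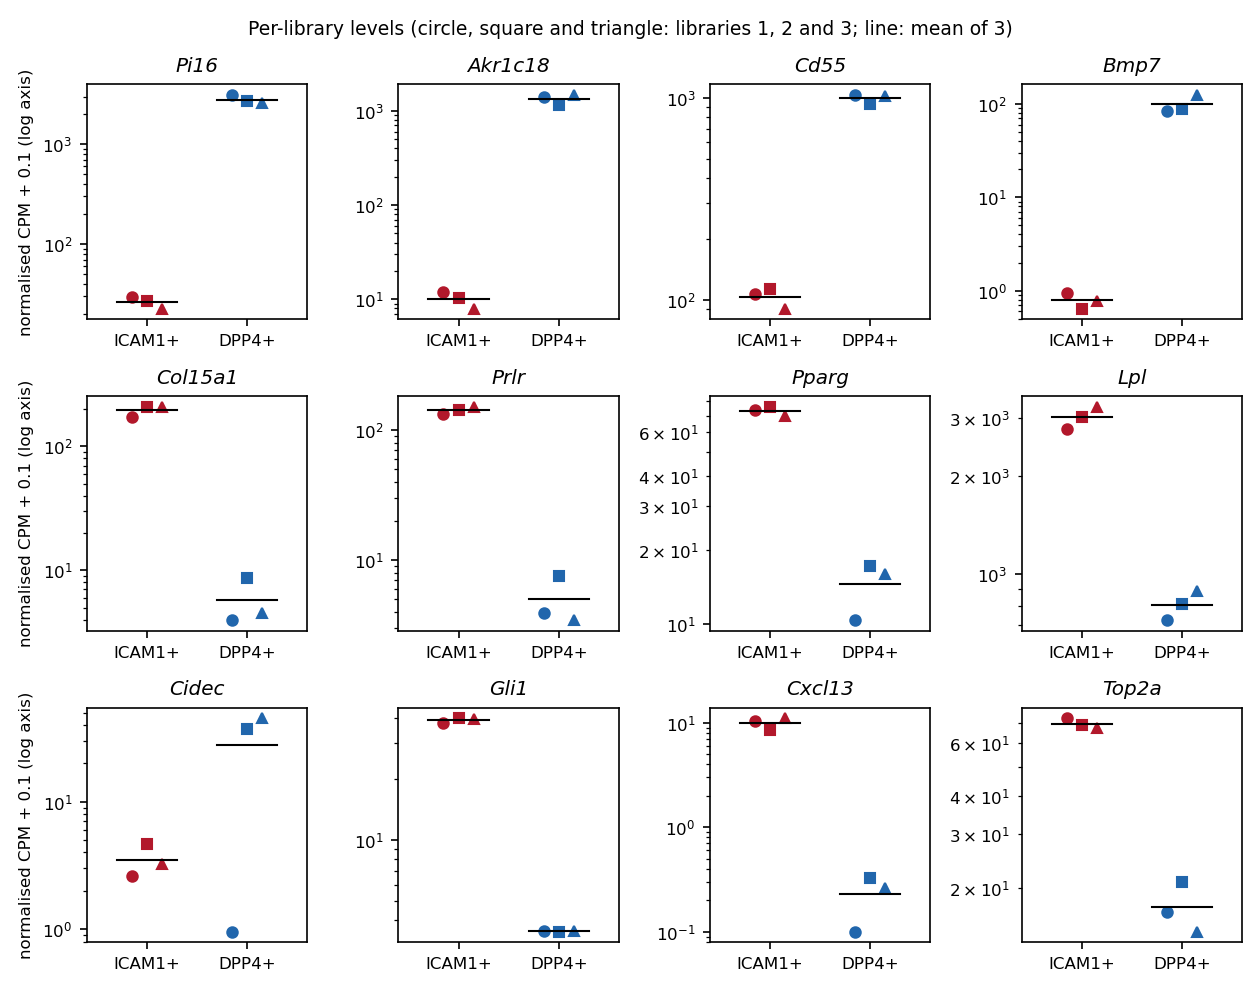
CPM plus 0.1 on a log axis for 12 genes in each ICAM1+ library (left of each panel, red) and each DPP4+ library (right, blue), with a line at the mean of 3. In all panels but that of Cidec the 2 populations do not overlap, which for some of these genes was a condition of their choice. For Cidec DPP4+ library 1 lies apart from DPP4+ libraries 2 and 3.

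Regulators of fat cell formation moved in both directions. Beside 9.34% higher and 8.61% lower of all genes tested, 9 of 39 adipogenic transcription factor genes were higher and 5 lower. Their median was 0.21 (5 to 15 higher and 3 to 11 lower). The higher count was 5 without DPP4+ library 1 or library 3 and the lower count 3 without ICAM1+ library 3. Pparg, the master regulator of fat cell formation (chr6:115360951-115490399, plus strand), had 73.6, 75.9 and 69.6 CPM in ICAM1+ libraries, against 10.3, 17.1 and 15.8 CPM in DPP4+ libraries. The groups lay far apart (2.34 ± 0.26, adjusted p = 5.31e-05). Its partner Rxrg rose as well (2.91 ± 0.48, adjusted p = 0.000942), as did Nr2f2, which encodes the nuclear receptor COUP-TFII (2.40 ± 0.17, adjusted p = 1.6e-06). Cebpa, the gene of C/EBP-alpha, was low in both populations at 3.08 ± 0.347 CPM in ICAM1+ and 0.711 ± 0.0274 CPM in DPP4+ cells (SD, n = 3 each). Its rise was called (2.10 ± 0.59, adjusted p = 0.0264) but the call was lost without any 1 of the 6 inguinal libraries, with adjusted p between 0.0505 and 0.0824. Among the factors that fell, Irf4, which represses lipid storage and promotes lipolysis in fat cells, had 4.59, 6.96 and 6.05 CPM in ICAM1+ libraries, against 46.6, 43.5 and 38.6 CPM in DPP4+ libraries (-2.86 ± 0.42, adjusted p = 0.000406). Zfp423, which primes preadipocytes in the mouse, fell less (-1.22 ± 0.20, adjusted p = 0.00102), and Klf3, a repressor of fat cell formation, fell too (-1.29 ± 0.31, adjusted p = 0.012), with its call lost without ICAM1+ library 1 (adjusted p = 0.0541) or library 3 (adjusted p = 0.0545).

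Some genes of fatty acid handling rose. Beside 9.34% higher and 8.61% lower of all genes tested, 7 of 39 genes of lipid uptake and storage were higher and 2 lower. Their median was 0.00 beside 0.02 for all genes (4 to 12 higher and 1 to 10 lower). Without DPP4+ library 1 or ICAM1+ library 1 the higher count was 4. The lower count was 5 without DPP4+ library 1, 6 without perivascular progenitor library 1, 4 without perivascular preadipocyte library 1, and 1 without DPP4+ library 2 or any single ICAM1+ library. Lpl, which encodes the lipase that frees fatty acids from circulating lipoproteins (chr8:68880491-68907448, plus strand), had 2774, 3034 and 3255 CPM in ICAM1+ libraries, against 722, 811 and 885 CPM in DPP4+ libraries. The groups did not overlap (1.91 ± 0.19, adjusted p = 2.36e-05). Cd36, a fatty acid transporter gene, had 825, 792 and 895 CPM in ICAM1+ libraries, against 129, 265 and 164 CPM in DPP4+ libraries (2.17 ± 0.32, adjusted p = 0.000423), and Car3, an abundant carbonic anhydrase of fat, had 178, 157 and 109.6 CPM in ICAM1+ libraries, against 15.9, 31.1 and 19.976 CPM in DPP4+ libraries (2.73 ± 0.38, adjusted p = 0.000242). Apoe, the gene of a lipoprotein component, had 1914, 1704 and 1587 CPM in ICAM1+ libraries, against 112, 322 and 287 CPM in DPP4+ libraries, with DPP4+ library 1 the lowest (2.85 ± 0.38, adjusted p = 0.000195). Fabp4, which encodes a fatty acid binding protein of fat cells, had 618, 521 and 562 CPM in ICAM1+ libraries, against 127, 267 and 220.4 CPM in DPP4+ libraries. All ICAM1+ libraries were above all DPP4+ libraries, but its call (1.47 ± 0.40, adjusted p = 0.021) was lost without DPP4+ library 1 (adjusted p = 0.0895), DPP4+ library 3 (0.0559) or ICAM1+ library 1 (0.0633) or 3 (0.0525).

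Markers of mature fat cells were higher in DPP4+ libraries 2 and 3 than in DPP4+ library 1. Cidec, a lipid droplet protein gene, had 2.51, 4.56 and 3.13 CPM in ICAM1+ libraries, against 0.856, 37.1 and 45.1 CPM in DPP4+ libraries. DPP4+ library 1 lay under every ICAM1+ library and DPP4+ libraries 2 and 3 far over them. The call of Cidec as lower (-3.0047 ± 0.88, adjusted p = 0.0323) was lost without any of the inguinal libraries other than DPP4+ library 1, with adjusted p between 0.0803 and 0.117, and under limma-voom with library weights (adjusted p = 0.512). The adipokine gene Adipoq had 29.4, 32.6 and 21.1 CPM in ICAM1+ libraries, against 3.78, 22.1 and 33.6 CPM in DPP4+ libraries and was not called (0.49 ± 0.57, adjusted p = 0.634), and Cfd, the gene of adipsin, had 9.66, 32.7 and 11.3 CPM in ICAM1+ libraries, against 3.71, 112 and 185 CPM in DPP4+ libraries and was not called either (-2.48 ± 0.89, adjusted p = 0.0772). Summed over 12 mature adipocyte markers, the ICAM1+ libraries held 109.7, 139 and 97.3 CPM and the DPP4+ libraries 40.9, 248 and 329 CPM. Plin1, which coats lipid droplets, rose (2.11 ± 0.56, adjusted p = 0.0194), with the call lost without DPP4+ library 1 (adjusted p = 0.0839), DPP4+ library 2 (0.0644) or ICAM1+ library 1 (0.0587). Scd1, the desaturase gene, fell (-1.25 ± 0.26, adjusted p = 0.00494) and had 15.0, 19.7 and 21.3 CPM in ICAM1+ libraries, against 51.8, 53.1 and 28.1 CPM in DPP4+ libraries. The part of mature fat cell RNA in these results was not tested.

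Genes of heat production were called about as often as all genes. Of 19 tested thermogenic genes, 2 were higher and 1 lower, with 1 to 4 higher and 0 to 2 lower over the alternatives, against 9.34% higher and 8.61% lower of all genes tested. A single gene was higher without DPP4+ library 1, ICAM1+ library 1 or 2, or library 2 or 3 of either perivascular group. None was lower without DPP4+ library 1 or 2 or any single ICAM1+ library, and 2 were lower without perivascular preadipocyte library 1. Cox8b, a cytochrome oxidase subunit isoform of heart and brown fat, had 1.71, 1.74 and 1.64 CPM in ICAM1+ libraries, against 0, 0 and 0.327 CPM in DPP4+ libraries (3.97 ± 0.89, adjusted p = 0.00718). Its only DPP4+ counts were in library 3, and the fitted value was 7.98 without that library and 3.37 without DPP4+ library 1. Ucp1, the uncoupling protein gene of brown fat, stayed under 1 CPM in each of the 6 libraries and was not called (0.31 ± 0.72, adjusted p = 0.833). None of 36 nuclear genes of oxidative phosphorylation was called by edgeR on all 12 libraries under TMM or by DESeq2, and none had an unadjusted p under 0.05 in that edgeR fit (0 to 6 higher and 0 to 2 lower). Limma-voom with library weights called 3 higher and 1 lower, and edgeR called 2 higher under library totals, 6 higher and 2 lower in the 6 inguinal libraries alone, and 2 higher and 2 lower without perivascular preadipocyte library 1. The ATP synthase genes Atp5b (0.07, adjusted p = 0.866) and Atp5a1 (0.16, adjusted p = 0.617) had the most counts of these. Of 22 glycolysis genes 1 was higher and 8 were lower, at a median of -0.45 (1 to 4 higher and 4 to 13 lower), and under library totals 4 were higher and 4 lower. The higher count was 3 without perivascular preadipocyte library 1 and 2 without library 3 of that group or perivascular progenitor library 1. Slc16a1, the lactate transporter gene MCT1, had 62.5, 61.8 and 59.2 CPM in ICAM1+ libraries, against 304, 292 and 282 CPM in DPP4+ libraries (-2.26 ± 0.17, adjusted p = 2.33e-06). The glucose transporter gene Slc2a1 fell (-1.09 ± 0.19, adjusted p = 0.00116) while Ldhb, a lactate dehydrogenase subunit gene, rose (1.73 ± 0.25, adjusted p = 0.000385). Of 24 cholesterol synthesis genes 5 rose and none fell, among them Idi1 (0.91 ± 0.16, adjusted p = 0.00128), with 1 to 15 higher and 0 lower. The count was 3 without DPP4+ library 1 or 2, 2 without DPP4+ library 3 or ICAM1+ library 1, and 1 without ICAM1+ library 2, against 15 under library totals.

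The genes of another stromal population, marked by CD142 and described in the mouse as restraining fat formation, were mostly higher in ICAM1+ cells. Of 10 tested genes, 6 were higher and none lower, with a median of 1.76 (5 to 8 higher and 0 to 1 lower). F3, the gene of CD142 itself, had 122, 122 and 115 CPM in ICAM1+ libraries, against 56.2, 49.3 and 54.4 CPM in DPP4+ libraries (1.17 ± 0.29, adjusted p = 0.0139), with the call lost without DPP4+ library 2 (adjusted p = 0.0563). Mgp, an inhibitor of calcification, had 47.5, 37.8 and 41.1 CPM in ICAM1+ libraries, against 3.14, 4.02 and 2.62 CPM in DPP4+ libraries (3.69 ± 0.29, adjusted p = 3.06e-06). Vit, which encodes the matrix protein vitrin, had 26.0, 26.8 and 30.1 CPM in ICAM1+ libraries, against 2.07, 4.17 and 1.72 CPM in DPP4+ libraries (3.38 ± 0.33, adjusted p = 1.71e-05), and the homeobox gene Meox2 rose too (2.69 ± 0.27, adjusted p = 2.51e-05). Dlk1, the gene of preadipocyte factor 1, had 2314, 2388 and 2368 CPM in ICAM1+ libraries, against 1412, 1638 and 1962 CPM in DPP4+ libraries and was not called (0.50 ± 0.18, adjusted p = 0.0741).

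**Figure D3:**
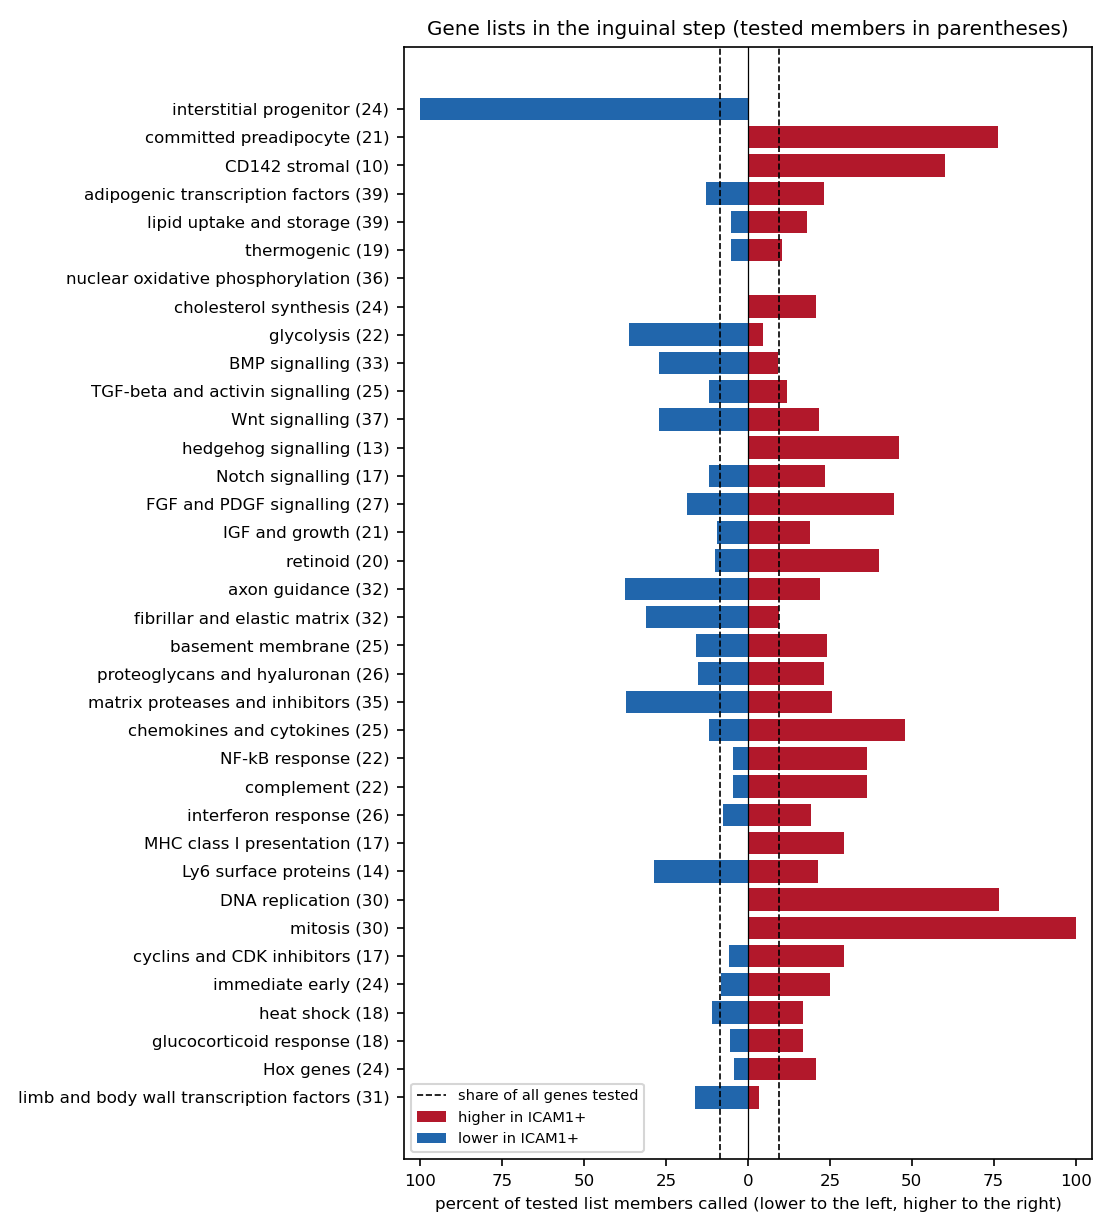
Percent of the tested members of 36 gene lists that were called higher (red, right) or lower (blue, left) in ICAM1+ cells, with the share of all genes tested as dashed lines at 9.34% and 8.61%. The interstitial progenitor list lies wholly on the lower side and the mitosis list wholly on the higher side.

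Several ligand genes of the BMP family fell. Of 33 tested BMP pathway genes, 9 were lower and 3 higher, with a median of -0.26 that was 0.11 under library totals (3 to 8 higher and 7 to 13 lower), and 5 were higher without perivascular preadipocyte library 1. Besides Bmp7, the ligand gene Bmp4 (chr14:46383520-46390669, minus strand) had 2.69, 3.67 and 2.62 CPM in ICAM1+ libraries, against 59.5, 51.2 and 55.3 CPM in DPP4+ libraries, Bmp3 had 29.4, 27.9 and 27.6 CPM in ICAM1+ libraries, against 236, 238 and 286 CPM in DPP4+ libraries, and Bmp6 had 0.245, 0.464 and 0.257 CPM in ICAM1+ libraries, against 18.5, 18.038 and 21.4 CPM in DPP4+ libraries. No ICAM1+ library overlapped with a DPP4+ library in any of these genes. Their changes were -4.20 for Bmp4 (adjusted p = 5.76e-07), -3.16 for Bmp3 (adjusted p = 0.000807) and -5.83 for Bmp6 (adjusted p = 0.000227). The BMP target gene Id1 was among those that rose (1.40 ± 0.21, adjusted p = 0.00048). In the TGF-beta and activin list 3 of 25 rose and 3 fell (3 to 5 higher and 1 to 9 lower), near the 9.34% higher and 8.61% lower of all genes tested. The lower count was 1 without any single ICAM1+ library, 6 without perivascular preadipocyte library 1 and 5 without library 3 of that group. Inhba, which encodes the activin A subunit, rose (2.74 ± 0.35, adjusted p = 0.000148), and the receptor gene Tgfbr2 fell (-1.46 ± 0.33, adjusted p = 0.00735).

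Wnt genes split. Of 37 tested, 8 rose and 10 fell, with a median of -0.30 that was 0.08 under library totals (6 to 8 higher and 8 to 16 lower). The ligand gene Wnt2 (chr6:17988940-18030585, minus strand) had 27.6, 23.5 and 20.5 CPM in ICAM1+ libraries, against 424, 352 and 397 CPM in DPP4+ libraries, without overlap (-4.03 ± 0.19, adjusted p = 5.79e-08). Wnt16 had 0.795, 0.232 and 0.359 CPM in ICAM1+ libraries, against 16.3, 12.9 and 14.2 CPM in DPP4+ libraries (-5.02 ± 0.41, adjusted p = 3.88e-06) and so fell together with Wnt10b. Among hedgehog genes 6 of 13 rose and none fell, with a median of 0.92 (4 to 9 higher and 0 lower). The hedgehog binding gene Hhip (chr8:79965851-80058006, minus strand) had 75.4, 83.2 and 100.6 CPM in ICAM1+ libraries, against 4.21, 5.91 and 3.93 CPM in DPP4+ libraries (4.20 ± 0.65, adjusted p = 0.00055), and the pathway's target and effector gene Gli1 (chr10:127329882-127341974, minus strand) had 37.3, 39.6 and 39.1 CPM in ICAM1+ libraries, against 3.42, 3.41 and 3.44 CPM in DPP4+ libraries. Gli1 showed no overlap and hardly varied within either population (3.50 ± 0.34, adjusted p = 1.64e-05). Gli2, an activating effector, rose less (1.28 ± 0.29, adjusted p = 0.00766). Hhip and Gli1 are themselves known targets of hedgehog signalling.

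Notch genes rose in 4 of 17 cases and fell in 2 (3 to 8 higher and 1 to 2 lower), beside 9.34% and 8.61% of all genes tested. The lower count was 1 without DPP4+ library 3 or ICAM1+ library 2. The receptor gene Notch3 (chr17:32120820-32166852, minus strand) had 125, 133 and 134 CPM in ICAM1+ libraries, against 13.4, 27.6 and 19.976 CPM in DPP4+ libraries (2.68 ± 0.28, adjusted p = 3.2e-05), and Heyl, a target of Notch (chr4:123233556-123249875, plus strand), had 119, 121 and 124 CPM in ICAM1+ libraries, against 4.78, 11.2 and 4.42 CPM in DPP4+ libraries (4.15 ± 0.55, adjusted p = 0.000186). In both, DPP4+ library 2 was the highest of its group and still far under ICAM1+ cells. The receptor gene Notch2 moved the other way, with 38.5, 42.2 and 37.4 CPM in ICAM1+ libraries, against 104, 113 and 134 CPM in DPP4+ libraries (-1.57 ± 0.16, adjusted p = 2.72e-05). Notch3 and Heyl are also known from mural cells, whose markers are described further on. Of 27 FGF and PDGF genes 12 rose and 5 fell (9 to 13 higher and 3 to 7 lower), and 3 fell without DPP4+ library 2 or 3 or ICAM1+ library 1. The feedback inhibitor gene Spry4 (2.10 ± 0.28, adjusted p = 0.000168) and the ERK target gene Etv4 (3.18 ± 0.40, adjusted p = 0.000129) rose, and the ligand gene Fgf2 fell (-1.51 ± 0.21, adjusted p = 0.0003), though 13.2% of its exonic bases overlap other genes.

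Growth factor genes of the IGF list rose in 4 of 21 cases and fell in 2 (2 to 8 higher and 2 to 7 lower), beside 9.34% and 8.61% of all genes tested. Without DPP4+ library 2 or ICAM1+ library 1 or 2 there were 2 that rose, and without perivascular progenitor library 1 there were 7 that rose and 4 that fell. The ligand gene Igf1 (chr10:87858265-87937042, plus strand) had 469, 482 and 494 CPM in ICAM1+ libraries, against 193, 179 and 191 CPM in DPP4+ libraries, with no overlap (1.36 ± 0.13, adjusted p = 1.67e-05). The binding protein genes Igfbp5 (-2.75 ± 0.28, adjusted p = 2.17e-05) and Igfbp6 (-2.27 ± 0.19, adjusted p = 4.4e-06) fell. Mest, an imprinted gene linked to fat expansion in mice, had 1033, 941 and 760.0 CPM in ICAM1+ libraries, against 159, 205 and 273 CPM in DPP4+ libraries (2.10 ± 0.30, adjusted p = 0.000333), with 23.1% of its exonic bases overlapped by a neighbour. Of 20 retinoid genes 8 rose and 2 fell (7 to 10 higher and 2 to 5 lower), with 5 lower without perivascular progenitor library 1 and 4 without perivascular preadipocyte library 1. Aldh1a3, which makes retinoic acid (chr7:66390890-66427517, minus strand), had 13.7, 14.2 and 14.6 CPM in ICAM1+ libraries, against 649, 627 and 677 CPM in DPP4+ libraries. It fell with the lowest adjusted p of the genes named here (-5.52 ± 0.15, adjusted p = 5.01e-10). In the axon guidance list 7 of 32 rose and 12 fell, at a median of -0.19 that was 0.19 under library totals (7 to 14 higher and 11 to 16 lower). The ligand genes Sema3d (chr5:12383385-12588948, plus strand), with 26.6, 23.9 and 24.9 CPM in ICAM1+ libraries, against 499.6, 503 and 499 CPM in DPP4+ libraries (-4.32 ± 0.30, adjusted p = 1.05e-06), and Sema3c (-2.78 ± 0.43, adjusted p = 0.000583) fell with Sema3e, and the co-receptor gene Nrp1 rose, with 405, 447 and 493 CPM in ICAM1+ libraries, against 89.8, 122.9 and 88.2 CPM in DPP4+ libraries (2.16 ± 0.26, adjusted p = 7.55e-05).

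Matrix RNA took a smaller share of ICAM1+ libraries. The 32 genes of fibrillar and elastic matrix held 21.2, 22.994 and 24.5% of all counts in the ICAM1+ libraries and 31.8, 32.4 and 33.4% in the DPP4+ libraries. The populations did not overlap, at 22.9 ± 1.65% and 32.5 ± 0.81% (SD, n = 3 each), and the exact two-sided permutation test gave p = 0.1, the smallest that 3 against 3 libraries can give. Of the mean difference of -9.66 percentage points, Col3a1 made up -5.35, with 10.7% of counts in ICAM1+ and 16.1% in DPP4+ libraries. Col1a1 and Col1a2 each made up -1.16 points and Fn1 -1.05. A difference in share is not a call, and unlike Fn1 these collagen genes are not among the called genes named here. Of the 32 genes 10 were lower and 3 higher, with a median of -0.59 that was -0.22 under library totals (2 to 8 higher and 9 to 20 lower). Without perivascular preadipocyte library 1, 6 were higher. Fn1, the fibronectin gene (chr1:71585520-71653200, minus strand), had 3130.2, 3578 and 4324 CPM in ICAM1+ libraries, against 17803, 19278 and 17258 CPM in DPP4+ libraries (-2.30 ± 0.36, adjusted p = 0.000648). Fbn1, the gene of fibrillin 1, had 1046, 1149.7 and 1231 CPM in ICAM1+ libraries, against 7252, 7707 and 7824 CPM in DPP4+ libraries (-2.73 ± 0.32, adjusted p = 6.42e-05), with 20.1% of its exonic bases overlapped by another gene. Elastic fibre genes fell with it, namely Eln for elastin (-1.9978 ± 0.40, adjusted p = 0.00357), Mfap5 for a microfibril protein (-2.30 ± 0.29, adjusted p = 0.000123) and Fbln2 for fibulin 2 (-2.03 ± 0.22, adjusted p = 4.33e-05). Fstl1, a secreted glycoprotein gene, fell (-1.40 ± 0.36, adjusted p = 0.0151), with the call lost without any 1 ICAM1+ library (adjusted p between 0.0542 and 0.0648). Col12a1, a collagen that binds fibril surfaces, rose (1.59 ± 0.23, adjusted p = 0.000329), as did Tnc, the tenascin C gene (2.44 ± 0.70, adjusted p = 0.0281), whose call was lost without any 1 of the 6 inguinal libraries (adjusted p between 0.0539 and 0.104).

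Basement membrane genes went both ways, with 6 of 25 higher and 4 lower (5 to 9 higher and 3 to 10 lower). The type IV collagen genes Col4a1 (chr8:11198423-11312826, minus strand), with 2594, 2878 and 3291 CPM in ICAM1+ libraries, against 326, 553 and 407 CPM in DPP4+ libraries (2.77 ± 0.33, adjusted p = 8.8e-05), and Col4a2, with 1417, 1529 and 1491 CPM in ICAM1+ libraries, against 174, 292 and 256 CPM in DPP4+ libraries (2.62 ± 0.29, adjusted p = 4.47e-05), rose together with Col15a1. For both, the lowest DPP4+ library was library 1 and the highest library 2. Nid1, which links laminin to collagen IV, fell (-1.20 ± 0.32, adjusted p = 0.0191), with the call lost without DPP4+ library 1 or 2 or ICAM1+ library 1 or 2 (adjusted p between 0.054 and 0.0865) and under library totals (0.0562), and the laminin chain gene Lamb3 fell (-3.81 ± 0.38, adjusted p = 1.97e-05). Of 35 proteases and inhibitors of the matrix 9 rose and 13 fell (7 to 11 higher and 12 to 15 lower). The stromelysin gene Mmp3 had 25.4, 24.9 and 20.7 CPM in ICAM1+ libraries, against 1.4974, 2.5011 and 1.47 CPM in DPP4+ libraries (3.69 ± 0.47, adjusted p = 0.000136). The enhancer of collagen processing Pcolce2 had 69.3, 66.6 and 53.6 CPM in ICAM1+ libraries, against 699, 654 and 916 CPM in DPP4+ libraries (-3.58 ± 0.47, adjusted p = 0.00016), and the inhibitor gene Timp3, 21.3% of whose exonic bases overlap another gene, had 205, 232 and 236 CPM in ICAM1+ libraries, against 1412, 1404 and 1304 CPM in DPP4+ libraries (-2.61 ± 0.40, adjusted p = 0.000574).

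Chemokine and cytokine genes were higher in 12 of 25 cases and lower in 3, with a median of 0.79 (11 to 14 higher and 2 to 3 lower). Cxcl13, a B cell attractant (chr5:95956951-95961068, plus strand), had 10.4, 8.35 and 10.980 CPM in ICAM1+ libraries, against 0, 0.227 and 0.164 CPM in DPP4+ libraries. ICAM1+ libraries ranged over a narrow interval and DPP4+ libraries were at or near 0 (6.21 ± 0.47, adjusted p = 2.19e-06). The Cxcl13 value was 5.61 without DPP4+ library 1 and 6.89 without DPP4+ library 2. Ccl19, an attractant of lymphocytes and dendritic cells, had 271 counts over the ICAM1+ libraries and 1 over the DPP4+ libraries, a ratio per depth of 173 (95% counting interval 30.8 to 6864). The scavenging receptor gene Ackr3 fell (-2.19 ± 0.47, adjusted p = 0.00578). Of 22 genes of the NF-kB response 8 rose and 1 fell, Icam1, which defined the sort, being among the 8 (7 to 13 higher and 1 to 2 lower). The adhesion molecule gene Vcam1 (chr3:116109949-116129688, minus strand) had 228, 215 and 244 CPM in ICAM1+ libraries, against 62.1, 63.7 and 58.0 CPM in DPP4+ libraries (1.90 ± 0.28, adjusted p = 0.000409), and the cytokine gene Il6 (chr5:30013114-30019981, plus strand) had 109, 96.4 and 85.5 CPM in ICAM1+ libraries, against 54.5, 37.4 and 37.2 CPM in DPP4+ libraries (1.17 ± 0.17, adjusted p = 0.000371). Without perivascular progenitor library 1 there were 2 lower. The gene that fell was Ptgs2, the inducible cyclooxygenase gene, with 15.1, 16.5 and 8.31 CPM in ICAM1+ libraries, against 261, 194 and 202 CPM in DPP4+ libraries (-4.04 ± 0.41, adjusted p = 2.19e-05). Among 22 complement genes 8 rose and 1, Cd55, fell (7 to 11 higher and 1 to 3 lower), and those that rose included the collectin gene Colec11 (3.83 ± 0.54, adjusted p = 0.000306; 4.62 without DPP4+ library 2) and the protease gene C1s1 (1.77 ± 0.17, adjusted p = 1.35e-05), which has a near copy and 18.4% of exonic bases overlapped. Without DPP4+ library 1 or perivascular preadipocyte library 3, 2 complement genes were lower. Interferon response genes rose in 5 of 26 cases, among them Ifi27 (1.61 ± 0.17, adjusted p = 3.84e-05). They fell in 2 (3 to 13 higher and 0 to 4 lower), beside 9.34% higher and 8.61% lower of all genes tested. The higher count was 3 without DPP4+ library 3 or ICAM1+ library 1 and 8 without perivascular preadipocyte library 1, and the lower count was 0 to 1 without DPP4+ library 1 or 3 or any single ICAM1+ library. Genes of MHC class I presentation rose in 5 of 17 cases and fell in none (4 to 12 higher and 0 lower), and Psmb9, an immunoproteasome subunit gene, rose (2.60 ± 0.29, adjusted p = 5.15e-05).

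Promoters of the NF-kB response genes are shown because the letters GGANTTTCC, the core of the NF-kB site, were found more often in them than in all promoters. The windows run from 250 bases before to 50 after a gene's start, from RefSeq on build GRCm38.p6, and both strands were searched. Of the 17 NF-kB response genes with a window, 41.2% held the letters, as did 31.2% of 16 chemokine and cytokine genes and 1.6% of all 11916 tested genes with a window. Icam1 (chr9:21015690-21015989, plus strand) and Il6 (chr5:30012864-30013163, plus strand) were 2 of the 7 NF-kB response genes that held them, with the match in capitals. The capitals of Icam1 are a match on the other strand.
Icam1: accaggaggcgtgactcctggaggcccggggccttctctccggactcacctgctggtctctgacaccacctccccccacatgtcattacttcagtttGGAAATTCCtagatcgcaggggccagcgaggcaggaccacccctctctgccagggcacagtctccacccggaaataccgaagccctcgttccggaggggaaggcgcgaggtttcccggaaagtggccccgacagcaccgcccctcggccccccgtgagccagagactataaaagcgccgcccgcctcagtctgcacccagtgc
Il6: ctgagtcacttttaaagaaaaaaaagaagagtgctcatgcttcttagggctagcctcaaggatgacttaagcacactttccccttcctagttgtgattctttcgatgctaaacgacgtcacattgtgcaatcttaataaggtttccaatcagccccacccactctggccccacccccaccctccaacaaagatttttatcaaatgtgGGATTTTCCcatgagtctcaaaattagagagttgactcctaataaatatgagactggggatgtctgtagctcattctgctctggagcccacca
A match is a run of letters and not a measured binding site. The gene lists were written from textbook knowledge, so a motif's share in its own list describes that list and not the inguinal step.

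All 30 mitosis genes were higher in ICAM1+ cells, with a median of 1.73, and all 30 were higher in each of the 22 alternatives. Of 30 DNA replication genes 23 were higher and none lower, with a median of 1.19 (19 to 26 higher and 0 to 1 lower). The topoisomerase gene Top2a (chr11:98992943-99024189, minus strand) had 72.2, 68.5 and 67.1 CPM in ICAM1+ libraries, against 16.5, 20.8 and 14.2 CPM in DPP4+ libraries. Every ICAM1+ library was above every DPP4+ library, and DPP4+ library 2 was the highest of its group (2.01 ± 0.18, adjusted p = 9.62e-06). The proliferation marker gene Mki67 (chr7:135689784-135716361, minus strand) had 49.9, 48.0 and 44.2 CPM in ICAM1+ libraries, against 9.63, 16.1 and 10.2 CPM in DPP4+ libraries (1.98 ± 0.26, adjusted p = 0.00016). The kinetochore gene Cenpf (2.01 ± 0.25, adjusted p = 9.77e-05) and the spindle checkpoint gene Bub1b (1.99 ± 0.26, adjusted p = 0.000175) rose alike. Tk1, the thymidine kinase gene of S phase, rose (1.72 ± 0.25, adjusted p = 0.000407). Among 17 cyclin and CDK inhibitor genes 5 rose and 1 fell (5 to 9 higher and 0 to 4 lower), beside 9.34% and 8.61% of all genes tested. Cdk6, a kinase of the G1 phase, rose (1.77 ± 0.34, adjusted p = 0.0028). The count of those that fell was 0 without DPP4+ library 3 or ICAM1+ library 2 or 3, 3 without library 1 of either perivascular group and 2 without perivascular preadipocyte library 3.

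Mitosis promoters are shown because most of them held a pair of motifs. CCAAT, and TTTGAA as the core of the cell cycle genes homology region, were searched on both strands of the same windows. CCAAT stood in 84.0% of the 25 mitosis genes with a window and in 42.4% of all 11916 genes, and TTTGAA in 76.0% and 14.6%. Both stood in 72.0% of the mitosis genes and in 7.1% of all genes, and the motifs shared a base in 1 of the 26 mitosis windows. The windows of the genes named above follow, with matches to either motif in capitals. They lie at chr1:189688037-189688336 (Cenpf, minus strand), chr11:99024140-99024439 (Top2a, minus strand), chr2:118597961-118598260 (Bub1b, plus strand) and chr7:135716330-135716629 (Mki67, minus strand).
Cenpf: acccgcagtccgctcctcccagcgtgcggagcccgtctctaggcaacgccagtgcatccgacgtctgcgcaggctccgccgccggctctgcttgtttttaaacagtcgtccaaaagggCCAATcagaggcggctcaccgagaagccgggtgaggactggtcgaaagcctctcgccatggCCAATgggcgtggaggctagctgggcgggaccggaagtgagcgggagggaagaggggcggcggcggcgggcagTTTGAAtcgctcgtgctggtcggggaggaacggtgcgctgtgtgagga
Top2a: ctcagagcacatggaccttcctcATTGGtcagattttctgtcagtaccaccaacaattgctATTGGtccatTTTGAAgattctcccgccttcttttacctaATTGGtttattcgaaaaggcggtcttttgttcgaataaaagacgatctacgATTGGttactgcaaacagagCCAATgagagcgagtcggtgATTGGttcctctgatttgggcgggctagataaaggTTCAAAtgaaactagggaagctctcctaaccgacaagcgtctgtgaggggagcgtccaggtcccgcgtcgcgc
Bub1b: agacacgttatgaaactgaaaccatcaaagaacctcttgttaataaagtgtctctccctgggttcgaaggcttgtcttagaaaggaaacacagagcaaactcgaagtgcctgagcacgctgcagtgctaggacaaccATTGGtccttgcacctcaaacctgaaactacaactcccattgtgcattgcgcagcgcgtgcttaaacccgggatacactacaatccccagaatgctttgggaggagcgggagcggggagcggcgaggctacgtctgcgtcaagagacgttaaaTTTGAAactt
Mki67: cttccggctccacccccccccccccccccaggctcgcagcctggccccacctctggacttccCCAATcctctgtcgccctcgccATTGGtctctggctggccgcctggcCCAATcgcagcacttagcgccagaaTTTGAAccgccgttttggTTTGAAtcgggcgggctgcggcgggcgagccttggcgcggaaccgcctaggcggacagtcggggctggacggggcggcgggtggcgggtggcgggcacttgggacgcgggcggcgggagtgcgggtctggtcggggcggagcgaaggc
Capitals that read ATTGG or TTCAAA are matches on the other strand. Apart from the GLI motif, the other motifs searched on both strands also gave a higher share in their own lists than among all genes. This likewise describes the lists. E2F's GGCGGGAA stood in 21.7% of 23 DNA replication genes against 4.44% of all genes, AAANNGAAA in 71.4% of 21 interferon response genes against 9.59%, and GAANNTTC in 69.2% of 13 heat shock genes against 7.07%. TGACGTCA, the cAMP response element, stood in 15.8% of 19 immediate early genes against 3.37%, and TCACCCCAC, a sterol response core, in 6.25% of 16 cholesterol synthesis genes against 0.655%. CCAAT stood in all 16 of those genes. In the hedgehog list, 0 of 9 genes with a window held GACCACCCA, the core of the GLI site, which was searched after the hedgehog genes had been seen, against 0.243% of all genes. This says only that these letters are not in these windows.

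Markers of other cell types were measured as well. The haematopoietic list summed to 87.5, 85.8 and 75.5 CPM in the ICAM1+ libraries and 92.3, 264 and 72.3 CPM in the DPP4+ libraries. DPP4+ library 2 stood apart from all others, in this list and in the mast cell list (111, 125 and 75.8 CPM in ICAM1+ and 89.8, 346 and 81.0 CPM in DPP4+ libraries). None of 16 haematopoietic genes was called by edgeR on all 12 libraries under TMM or by DESeq2, 2 having an unadjusted p under 0.05 in that edgeR fit (0 higher and 0 to 3 lower). Limma-voom with library weights called 2 lower, and edgeR called 3 lower in the 6 inguinal libraries alone and 1 lower without DPP4+ library 3. Lyz2, a macrophage gene, had 22.8, 23.033 and 22.2 CPM in ICAM1+ libraries, against 20.6, 83.4 and 17.4 CPM in DPP4+ libraries (-0.83 ± 0.63, adjusted p = 0.428). Of 10 mast cell genes 1 was called (0 higher and 1 lower), namely Hdc, the histidine decarboxylase gene, which fell (-2.45 ± 0.26, adjusted p = 3.14e-05). Hdc had 2.32, 3.79 and 2.41 CPM in ICAM1+ libraries, against 15.7, 16.9 and 14.4 CPM in DPP4+ libraries, with the DPP4+ libraries close together. None of 5 erythroid genes was called by edgeR, DESeq2 or limma-voom in any of the 22 alternatives, and none had an unadjusted p under 0.05 by edgeR on all 12 libraries, with the globin gene Hba-a1, one of a pair of near copies, at -0.10 (adjusted p = 0.906). The part of other cells' RNA in DPP4+ library 2 in these results was not tested. A fit without DPP4+ library 2 and without library 1 of both perivascular groups was added after the data had been seen. In that fit the interstitial list had 24 of 24 genes lower and the mitosis list 30 of 30 higher. Other lists moved. The haematopoietic median was 0.16 instead of -0.82 and the mast cell median 0.56 instead of -0.64. Smooth muscle had 8 genes higher instead of 4, and fibrillar and elastic matrix 7 higher and 19 lower instead of 3 and 10. As perivascular libraries were left out too, the fit does not single out DPP4+ library 2.

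**Figure D4:**
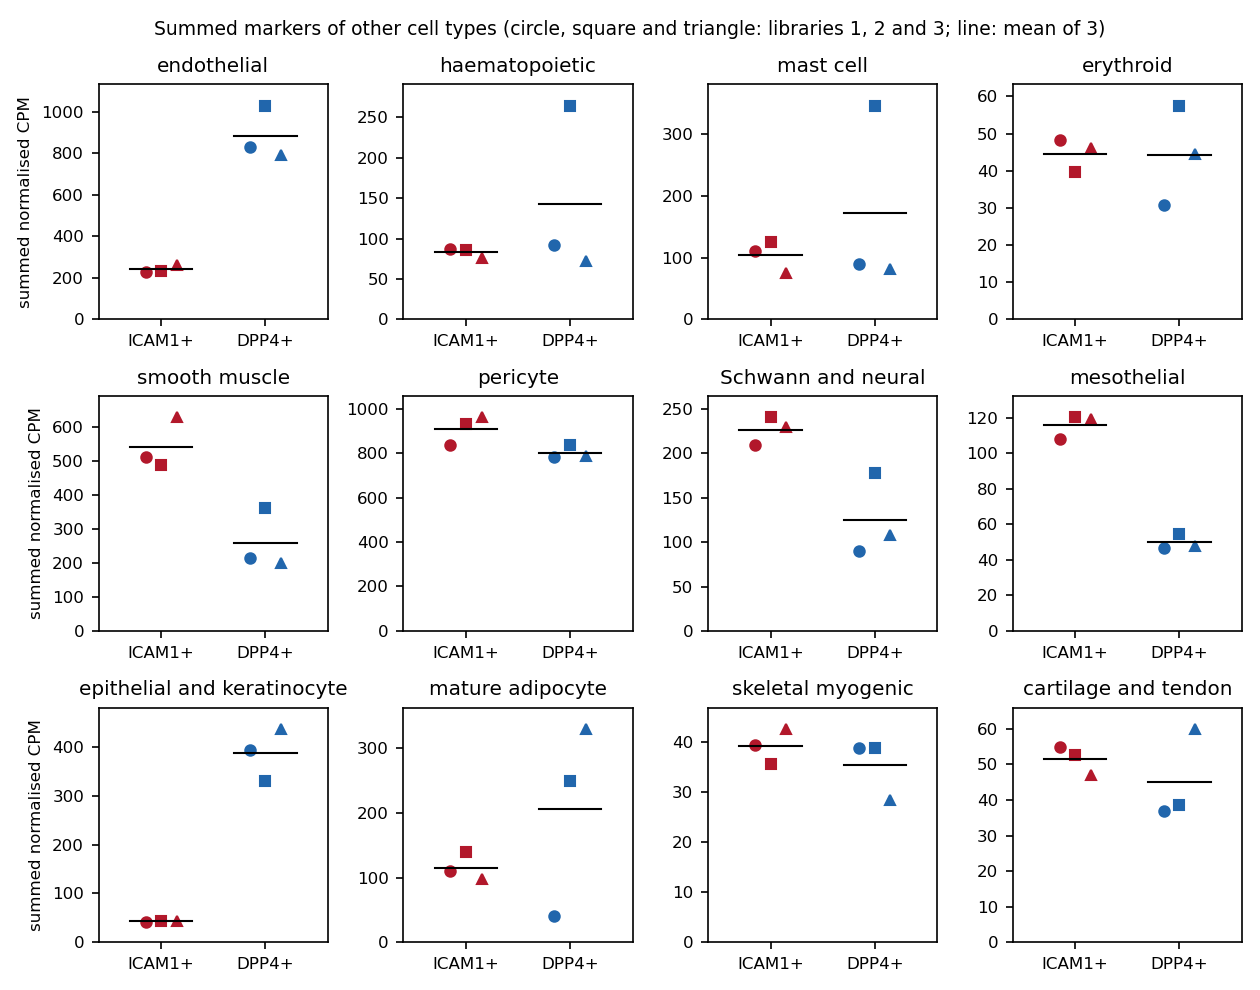
Summed CPM of the markers of 12 other cell types in each ICAM1+ library (left of each panel, red) and each DPP4+ library (right, blue), with a line at the mean of 3. DPP4+ library 2 is the highest of all 6 for the endothelial, haematopoietic, mast cell and erythroid lists, and DPP4+ libraries 2 and 3 for the mature adipocyte list.

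Of 12 smooth muscle genes 4 were higher and none lower (3 to 8 higher and 0 lower), with 8 higher without DPP4+ library 2. Of 12 pericyte genes 6 were higher and 2 lower (4 to 8 higher and 1 to 2 lower), with 1 lower without any single inguinal library. Acta2, the smooth muscle actin gene, had 229, 208 and 265 CPM in ICAM1+ libraries, against 40.4, 98.6 and 35.2 CPM in DPP4+ libraries (2.01 ± 0.33, adjusted p = 0.001), and its log2 fold change was 2.63 without DPP4+ library 2. Rgs5, a regulator of G protein signalling in pericytes, had 107, 119.8 and 129.9 CPM in ICAM1+ libraries, against 25.9, 64.5 and 25.1 CPM in DPP4+ libraries, and its call (1.63 ± 0.47, adjusted p = 0.0286) was lost without any 1 inguinal library other than DPP4+ library 2 (adjusted p between 0.0559 and 0.114), without which the log2 fold change was 2.22. The potassium channel gene Kcnj8, also a pericyte marker, was lower with 53.2, 58.5 and 52.9 CPM in ICAM1+ libraries, against 493, 459 and 524 CPM in DPP4+ libraries (-3.17 ± 0.33, adjusted p = 2.86e-05). Endothelial markers summed to 230.0, 234 and 261 CPM in ICAM1+ and 831, 1027 and 793 CPM in DPP4+ libraries, but most of the sum in DPP4+ libraries was Tek. This angiopoietin receptor gene had 71.4, 75.1 and 86.5 CPM in ICAM1+ libraries, against 705, 729 and 614 CPM in DPP4+ libraries (-3.14 ± 0.27, adjusted p = 6.33e-06). Plvap rose (2.42 ± 0.65, adjusted p = 0.0202), with the call lost without DPP4+ library 1 (adjusted p = 0.0854), DPP4+ library 3 (0.0685) or ICAM1+ library 1 (0.0523), and no other of the 14 was called (0 to 1 higher and 1 to 4 lower), though 2 were lower without DPP4+ library 1 or perivascular progenitor library 1. Schwann cell markers rose in 4 of 11 cases (2 to 7 higher and 0 to 1 lower), 2 without DPP4+ library 1 or 3 or ICAM1+ library 2 and 7 without DPP4+ library 2, among them the neurotrophin receptor gene Ngfr (3.05 ± 0.34, adjusted p = 4.33e-05) and S100b (1.56 ± 0.18, adjusted p = 6.27e-05). Of 13 mesothelial genes 3 rose and 2 fell (3 higher and 0 to 4 lower), beside 9.34% and 8.61% of all genes tested. The claudin gene Cldn15 was among those that rose (3.06 ± 0.24, adjusted p = 2.45e-06). No mesothelial gene was lower without ICAM1+ library 1, and 1 was lower without DPP4+ library 2 or 3, ICAM1+ library 3 or perivascular progenitor library 3. In the epithelial list the keratinocyte gene Krtdap, with 12.2, 8.62 and 9.70 CPM in ICAM1+ libraries, against 381, 309 and 419.6 CPM in DPP4+ libraries, carried nearly all of the sum of the DPP4+ libraries (-5.19 ± 0.28, adjusted p = 1.54e-07), while Krt14 rose (3.72 ± 0.43, adjusted p = 5.92e-05) and Krt5 had 144 counts in ICAM1+ libraries and 0 in DPP4+ libraries, at least 30.7-fold higher against a floor of 3 counts over the group.

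The step was set against that from progenitors to preadipocytes in perivascular fat, fitted in the same model. The steps differed for 2834 genes (15.0% of all tested), with 1633 changing more upward in inguinal fat (8.66%) and 1201 more downward (6.37%). Of the 3384 genes called in the inguinal step 1363, or 40.3%, were called for this difference, and they are 48.1% of the genes called for it. The difference count depends on single libraries. It was 5234 without perivascular preadipocyte library 1, 4847 without perivascular progenitor library 1, 1844 without DPP4+ library 3, 1812 without perivascular progenitor library 3, 1714 without perivascular preadipocyte library 2, 1706 without ICAM1+ library 3 and 1666 without ICAM1+ library 2. Under library totals 3104 genes differed, 76.7% of them upward against 57.6% under TMM. The committed preadipocyte list had a median of 1.91 in the inguinal and -0.13 in the perivascular step, and 11 of its 21 tested genes differed, all upward in inguinal fat (11 to 14 upward and 0 to 4 downward over 20 alternatives, with 3 downward without perivascular preadipocyte library 1 and 1 without perivascular progenitor library 1). The interstitial list had medians of -3.06 and -2.23, and 7 of its genes differed downward and 1, Ly6c1, upward (4 to 12 downward and 1 to 3 upward). The downward count was 4 without perivascular preadipocyte library 2, and the upward count 3 without library 1 of that group. Mitosis genes had medians of 1.73 in the inguinal and 1.02 in the perivascular step. Of these 30 genes 9 differed, all upward (4 to 16 upward and 0 downward). DNA replication genes had medians of 1.19 and 0.97, and of 30 genes 2 differed upward and 1 downward (0 to 8 upward and 1 to 5 downward).

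Col15a1 changed by 5.12 in the inguinal and -0.54 in the perivascular step (difference 5.67, adjusted p = 3.72e-05). Icam1 itself rose by 3.01 in inguinal fat and had a log2 fold change of -1.28 in the perivascular step (adjusted p of the difference = 7.98e-06), where the label of the preadipocytes does not name it. Cxcl13 differed by 6.82 (adjusted p = 1.58e-05) and Vit by 6.35 (adjusted p = 7.66e-06). Ly6a differed by 5.46 (adjusted p = 3.14e-06), with -1.26 in the inguinal and -6.71 in the perivascular step. Large downward differences were those of Cfd, -9.10 (adjusted p = 0.00176), Gabra2, -6.80 (adjusted p = 7.96e-06), Cidec, -6.76 (adjusted p = 0.00397), and Ccdc68, a gene of a coiled-coil protein, -5.95 (adjusted p = 5.3e-05). For Cfd and Cidec the inguinal values include the uneven DPP4+ libraries described above. Lipid storage genes differed downward in 18 of 39 cases and upward in 1 (12 to 25 downward and 1 to 4 upward over 20 alternatives), with 2 upward without library 1 of either perivascular group and medians of 0.00 in the inguinal and 2.03 in the perivascular step. Nuclear genes of oxidative phosphorylation differed downward in 31 of 36 cases, with medians of 0.21 and 1.63. That count was 16 to 20 without any 1 of 9 libraries, namely DPP4+ library 1 or 3, any ICAM1+ library, or library 2 or 3 of either perivascular group, and it was 17 with the replicate block, 18 under library totals and up to 36 in other alternatives. Ucp1 differed too (-4.49, adjusted p = 0.00696), with 0.31 in the inguinal and 4.80 in the perivascular step. Pparg, with 2.34 and 1.82, was not called as different (adjusted p = 0.334), nor was Cd36, with 2.17 and 2.60 (adjusted p = 0.534), nor Cd55, with -3.26 and -3.28 (adjusted p = 0.951).

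**Figure D5:**
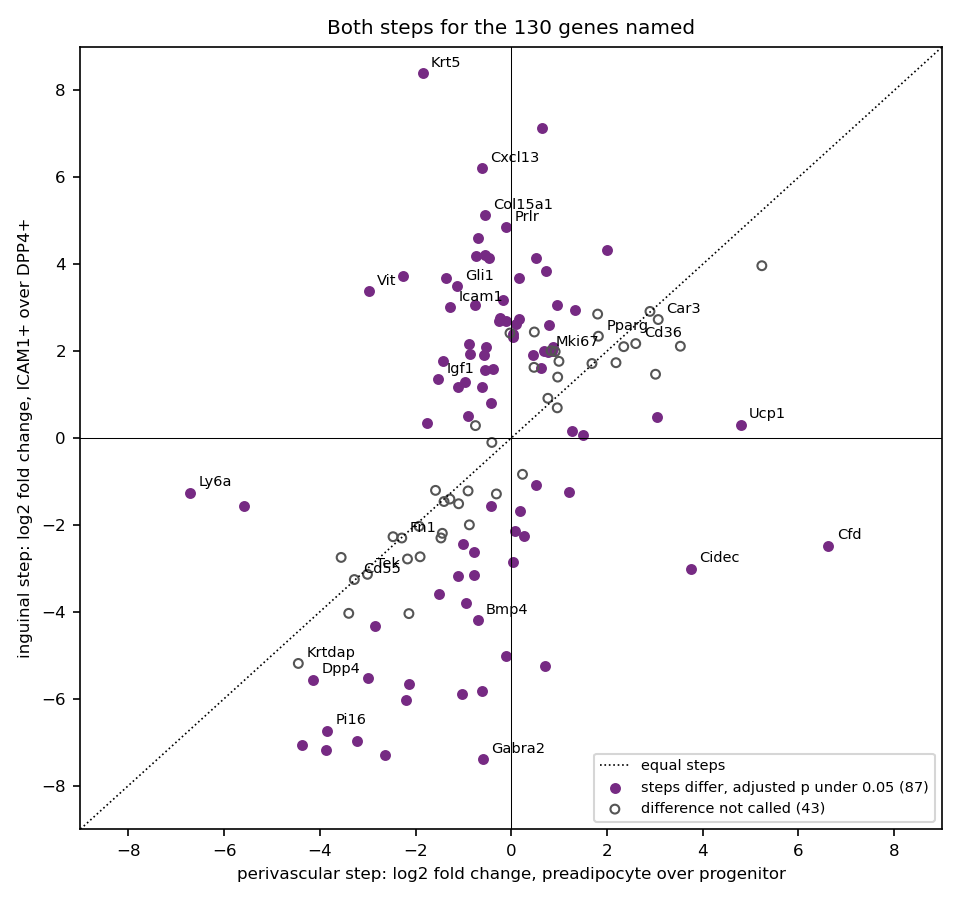
Log2 fold change in the inguinal step, ICAM1+ over DPP4+ (y axis), against the perivascular step, preadipocyte over progenitor (x axis), for the 130 genes named, filled where the difference was called (87) and open where it was not (43). Krt5, highest on the inguinal axis, is placed by a fitted value that rests on 0 DPP4+ counts. Col15a1, Prlr and Cxcl13 rise on the inguinal axis with perivascular values between -1 and 0, and Cfd and Cidec lie at the right, below 0.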

How the data were processed

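RNA of sorted cells was made into libraries with a low-input, poly(A)-selecting full-length kit, per the labels' protocols, and reads were aligned with STAR 2.5.2a to mm10, per the submitters' processing notes. The file of raw counts per gene deposited by the authors was used. The counter, its annotation, its strand setting and its treatment of reads shared between genes could not be learned from the labels or the file. The kit does not mark strand, so reads of a gene and of an overlapping antisense gene cannot be told apart. The deposited table lists genes with at least 10 counts in all. All of its columns belonged to the 12 samples, and 10712 of its 31099 genes, with 1.04 to 2.16% of counts, carried no symbol. The authors' 2 normalised tables were not used.

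Genes were kept by edgeR's filterByExpr (minimum count 10), scaled by TMM and fitted with group means over all 12 libraries, which share 1 estimate of the spread, by glmQLFit and glmQLFTest (edgeR 4.0.16, R 4.3.3). The SE is the fold change divided by the root of the F statistic, an approximation. Contrasts were ICAM1+ minus DPP4+ and the difference between that step and the perivascular one. DESeq2 1.42.0, limma-voom (limma 3.58.1), library totals, RLE scaling, other filters, 6 libraries alone and leaving out each library were the alternatives. Positions come from GENCODE M21, in which 31074 of 31099 IDs were found. Intervals of ratios cover counting error only.

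Same-numbered libraries hold tissue of the same pools of pups, per the labels' protocols, so the numbers pair the samples. The correlations of their deviations from group means over 18855 genes were 0.01, 0.05 and -0.09, within the range of -0.11 to 0.09 of unlike numbers. Pools are biological replicates of pooled animals. No 2 libraries were near-identical, the mean chi-square per gene between libraries of a group being 6.39 or more.

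Members and 48 gene lists were chosen with earlier results of these data known. Genes named are those with the largest called changes of at least 10 CPM whose ICAM1+ and DPP4+ libraries did not overlap. Named as well are the called genes with the most counts, 15 markers, up to 4 per list and direction, and those with the largest differences between steps. Not every gene so ranked is described, and some are not reported here.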

Additional observations from a re-analysis of the deposited data

Results flagged for a closer look

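The inguinal and perivascular steps differed for 2834 genes (15.0% of all tested) by the interaction test of edgeR, and 87 of the genes named were among them. Genes were named for large inguinal changes or large differences between steps, so a high count among them follows from the choice. Values are log2 differences, inguinal step minus perivascular step, and no explanation is offered for any of them.

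Upward differences were largest for Cxcl13 at 6.82, Vit at 6.35, Krt14 at 5.98, Col15a1 at 5.67, Ly6a at 5.46, Gdpd2 at 5.30 and Mmp3 at 5.05. Upward differences followed for Prlr at 4.95, Npy2r at 4.93, Hhip at 4.75, Gli1 at 4.63, Steap4 at 4.60, Icam1 at 4.29 and Ly6c1 at 4.01. Upward differences came next for Ngfr at 3.82, Heyl at 3.63, Mgp at 3.52, Etv4 at 3.35, C1s1 at 3.19, Colec11 at 3.10 and Nrp1 at 3.04. Upward differences were smaller for Col4a1 at 3.01, Meox2 at 2.95, Igf1 at 2.89, Notch3 at 2.80, Agtr2 at 2.78, Mest at 2.62 and Inhba at 2.58. Upward differences were smaller again for Col4a2 at 2.52, Vcam1 at 2.47, Nr2f2 at 2.37, Cited1 at 2.33, Il6 at 2.28, Egr2 at 2.27 and Gli2 at 2.26. Upward differences ran on for Cldn15 at 2.11, S100b at 2.11, Pdgfra at 2.10, Col12a1 at 1.97, Psmb9 at 1.82, F3 at 1.78 and Msx1 at 1.62. Upward differences were lower still for Lpl at 1.44, Dlk1 at 1.40, Top2a at 1.32, Spry4 at 1.24, Fos at 1.23, Mki67 at 1.22 and Cenpf at 1.16. Upward differences ended with Ifi27 at 1.0.

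Downward differences were largest for Cfd at -9.10, Gabra2 at -6.80, Cidec at -6.76, Ccdc68 at -5.95, Bmp6 at -5.22, Wnt16 at -4.91 and Sema3e at -4.87. Downward differences followed for Dync1i1 at -4.64, Ucp1 at -4.49, Dmkn at -3.84, Wnt10b at -3.75, Dact2 at -3.54, Bmp4 at -3.50 and Bmp7 at -3.30. Downward differences came next for Irf4 at -2.90, Pi16 at -2.89, Lamb3 at -2.87, Akr1c18 at -2.70, Adipoq at -2.56, Slc16a1 at -2.53 and Aldh1a3 at -2.53. Downward differences were smaller for Scd1 at -2.44, Bmp3 at -2.39, Osr2 at -2.23, Pcolce2 at -2.07, Kcnj8 at -2.06, Hspb8 at -1.87 and Timp3 at -1.85. Downward differences were smaller again for Slc2a1 at -1.60, Sema3d at -1.47, Hdc at -1.44, Dpp4 at -1.42, Atp5b at -1.42, Notch2 at -1.15 and Atp5a1 at -1.11.

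Krt5 and Ccl19 were left out of that order. Their fitted differences of 10.24 and 6.48 depend on how the fit treats counts near 0 and are no measure of size. Krt5 had 144 counts over the ICAM1+ libraries, 0 over the DPP4+ libraries, 0 over the perivascular preadipocyte libraries and 1 over the perivascular progenitor libraries. Ccl19 had 271 counts over the ICAM1+ libraries and 1 over the DPP4+ libraries, beside 7 over the perivascular preadipocyte libraries and 4 over the perivascular progenitor libraries.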

How the results depend on the processing

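Of 120 called genes named, 108 kept their call in each of 22 alternatives that gave a value, and the 12 that did not are Cebpa, Klf3, Fabp4, Cidec, Plin1, F3, Fstl1, Tnc, Nid1, Rgs5, Plvap and Fos, whose values without a library stand beside them. All 120 kept their call with the 6 inguinal libraries alone. As most of these genes were chosen for large or abundant called changes, their kept calls do not stand for all 3384 called genes. Uncalled genes changed sign as follows. With 1 library left out, Adipoq ran between -0.0022 (without DPP4+ library 1) and 1.11, and it was called higher under limma-voom. Ucp1 ran between -0.0398 and 0.531, Lyz2 between -1.19 and 0.256 and Hba-a1 between -0.324 and 0.151, each changing sign without DPP4+ library 2. Without that library and both perivascular libraries 1 they were at -0.0604, 0.231 and 0.1313, and Hba-a1 was at 0.272 under library totals and 0.0218 under limma-voom. The 3384 genes called in the inguinal step became 5281 under library totals, 6052 under limma-voom with library weights and 5757 with the 6 inguinal libraries alone, and 2276 to 4292 with 1 library left out. With DPP4+ library 2 and both perivascular libraries 1 out, a choice made after seeing the data, there were 4988, and 5023 for the 6 libraries with the block, also added afterwards. The 2834 genes that differed between depots became 8384 under limma-voom, 7784 without those 3 libraries, and 1666 to 5234 with 1 library left out. The replicate block gave 2988 and 2158, and under it no named gene lost its inguinal call. The difference in matrix share was between -10.5 and -8.81 percentage points with 1 library left out. Library totals moved the median of all genes to 0.398, and with it the sign of the median of 9 lists. The cause of these shifts was not tested. At 3 pools a group the depth limits genes under about 1 CPM, and Krt5, Ccl19 and similar genes rest on few counts in DPP4+ cells.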

Other observations

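Stress and patterning lists held calls in both directions, beside 9.34% higher and 8.61% lower of all genes tested. Of 24 immediate early genes 6 were higher in ICAM1+ cells and 2 lower (4 to 13 higher and 0 to 5 lower). The lower count was 4 without perivascular progenitor library 1, 1 without DPP4+ library 1 or 3 or ICAM1+ library 2, and 0 without ICAM1+ library 3. Egr2, a zinc finger factor induced early in fat cell formation in the mouse, had 268, 285 and 321 CPM in ICAM1+ libraries, against 57.2, 66.5 and 52.0 CPM in DPP4+ libraries (2.32 ± 0.27, adjusted p = 6.18e-05). Fos had 1942, 1987 and 2118 CPM in ICAM1+ libraries, against 1258, 1105 and 1107 CPM in DPP4+ libraries (0.80 ± 0.23, adjusted p = 0.0294), with the call lost without any 1 inguinal library (adjusted p between 0.0655 and 0.0961). Fos kept its call with the 6 inguinal libraries alone. Of 18 heat shock genes 3 were higher and 2 lower (2 to 11 higher and 1 to 4 lower), with 8 higher without perivascular preadipocyte library 1 and 1 lower without DPP4+ library 3 or ICAM1+ library 2 or 3. The small heat shock protein gene Hspb8 was lower, with 46.1, 46.9 and 37.7 CPM in ICAM1+ libraries, against 158, 127 and 134 CPM in DPP4+ libraries (-1.68 ± 0.19, adjusted p = 5.37e-05).

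Among 24 Hox genes 5 were higher and 1 lower (3 to 9 higher and 0 to 1 lower), the higher count being 3 without DPP4+ library 2 or ICAM1+ library 1 or 2 and the lower count 0 without DPP4+ library 1 or 3 or ICAM1+ library 2 or 3, and Hoxc8 had 20.7, 22.5 and 20.6 CPM in ICAM1+ libraries, against 11.8, 12.7 and 15.0 CPM in DPP4+ libraries (0.70 ± 0.15, adjusted p = 0.00622). Of 31 transcription factors of limb and body wall 1, Msx1, was higher and 5 lower (1 to 3 higher and 3 to 11 lower), with 2 higher without perivascular progenitor library 1. Msx1 had 38.7, 40.5 and 40.2 CPM in ICAM1+ libraries, against 4.99, 5.91 and 4.50 CPM in DPP4+ libraries (2.95 ± 0.17, adjusted p = 2.95e-07) and Osr2 had 79.9, 80.2 and 74.0 CPM in ICAM1+ libraries, against 377, 298 and 362 CPM in DPP4+ libraries (-2.15 ± 0.14, adjusted p = 5.76e-07), and neither gene's libraries overlapped between populations.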
